A study of Mus musculus with 4 samples.

Results

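The genes that store, release and take up calcium in the sarcoplasmic reticulum of the heart were followed across 4 heart RNA libraries. The set was a named list of 9 genes (Atp2a2, Pln, Ryr2, Casq2, Hrc, Trdn, Jph2, Sln and Srl), matched by symbol to the 12408 genes with deposited values. Of these, 8 had a value in every library, and Sln was not analysed here. Gene expression had been measured by RNA sequencing of total RNA from hearts of C57BL/6 mice, all 3 months old. The CT baseline library came from WW45 flox/flox hearts under baseline conditions, and the CT TAC library from the same genotype after 4 weeks of transverse aortic constriction (TAC), in which a tied aorta makes the left ventricle pump against a higher pressure. The cKO baseline and cKO TAC libraries were WW45 flox/flox-alpha-MHC-CRE, at baseline and after the same 4 weeks of TAC. All 4 libraries therefore carried the floxed alleles, and of these the cKO libraries carried Cre, which the alpha-myosin heavy chain promoter drives in cardiomyocytes. No library is labelled as sham-operated or as Cre without floxed alleles, so the operation and the load, and Cre and the deletion, cannot be told apart.

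In a cardiomyocyte each beat begins when calcium entering through the surface membrane opens the ryanodine receptor, which lets calcium out of the sarcoplasmic reticulum. The calcium pump SERCA then returns it to the store, where calsequestrin and other luminal proteins bind it. Phospholamban holds the pump back until it is phosphorylated, and lower SERCA is a familiar feature of the failing, pressure-loaded heart.

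Each group held 1 library, and the labels do not say how many hearts went into it. A ratio of libraries therefore has no replicate check, and the 95% intervals given with it cover counting error only, not variation between mice. The libraries held 1587840 to 2796547 reads, recovered from the deposited log2 CPM. CPM is reads scaled to a library size, and the size used in the deposited values was not the recovered read total. Scaling to that total instead moved the median log2 ratio of all genes in cKO to CT at baseline from 0.004 to 0.096. All 18 cardiomyocyte markers had reads in every library, and together took 13.9% to 16.2% of the reads. WW45 is listed as Sav1, the gene targeted in cKO. Its level was 49.3 CPM at baseline and 35.4 under TAC in CT, and 39.8 and 46.2 in cKO. It was thus not lower in the TAC library labelled cKO than in the one labelled CT. At baseline the counting intervals overlapped, at 41.3 to 58.4 CPM in CT and 30.7 to 50.7 in cKO. In the limma fit described below, the genotype effect on Sav1 was 0.04 log2 units (SE 0.26, adjusted p = 0.987). Lower Sav1 in cKO was therefore not detected at gene level in either state, and genotype directions below compare libraries as labelled. The labels do not say which exons are floxed, so reads from the rest of the gene may count in the Sav1 level. In whole-heart RNA, fewer cells of a type and less RNA per cell cannot be told apart. Summed fibroblast markers were higher in the TAC libraries (7668 and 8504 CPM) than at baseline (4137 in CT and 5632 in cKO), and all 12 were measured. Their part in the results below was not tested.

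The 8 genes together took 3.83% of all reads at baseline and 2.12% under TAC in CT, and 3.21% and 2.16% in cKO. Levels of different genes are compared as CPM per kilobase of annotated exon, using GENCODE M21 on GRCm38, the mm10 build named in the submitters' processing notes. In CT baseline the order of these levels was Atp2a2 (4733), Pln (1057), Hrc (931), Casq2 (338), Srl (230), Ryr2 (96.8), Jph2 (75.3) and Trdn (36.2), and no counting intervals of neighbours overlapped. Under TAC the order changed at a few places. Casq2 stood above Hrc in cKO TAC, at 471 against 354 CPM per kilobase. Jph2 and Trdn, at 31.0 and 35.1 in CT TAC and 33.7 and 32.4 in cKO TAC, had overlapping intervals. The exon length counts every annotated exon, including those of isoforms the heart may not use, so these levels depend on the annotation.

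**Figure D1:**
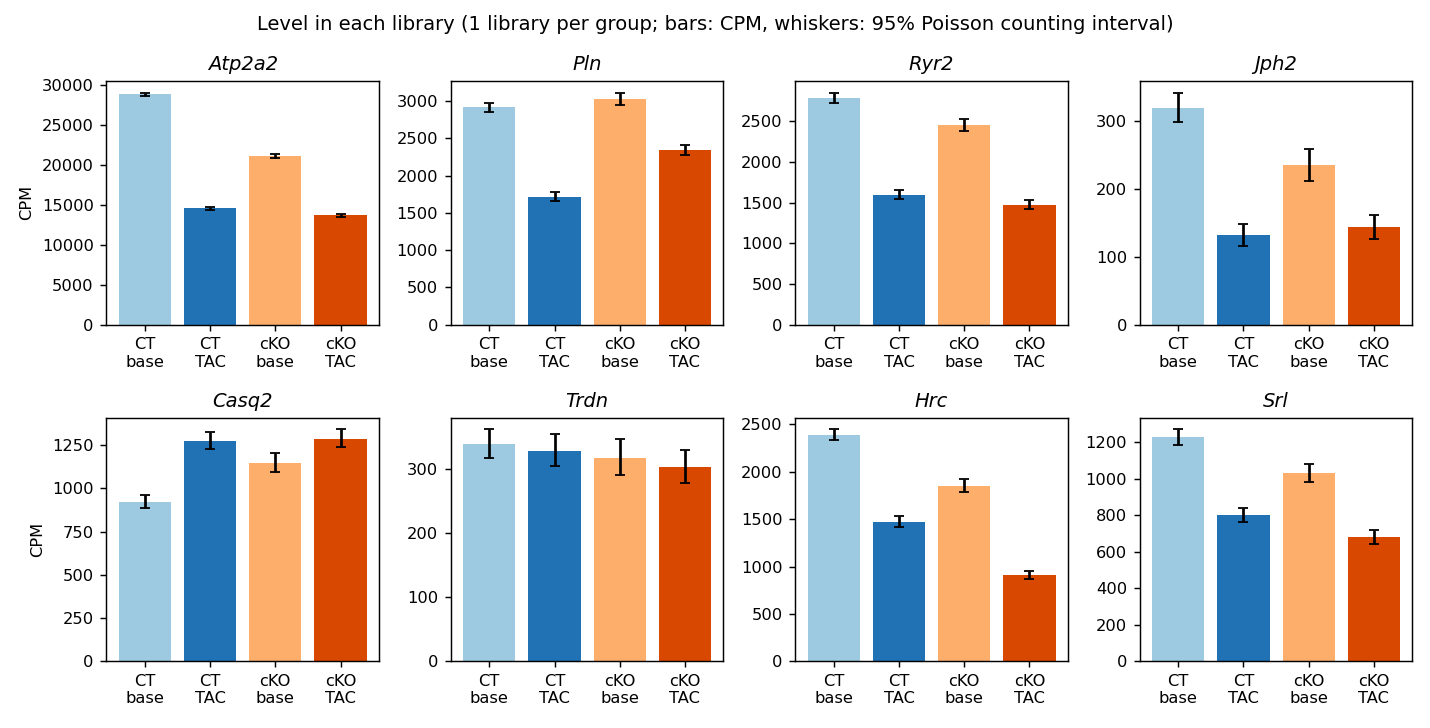
Level of each of the 8 genes in CPM (vertical axes from 0) in the 4 libraries, 1 per group, with 95% Poisson counting intervals as whiskers. Atp2a2 was lower in CT TAC (14550 CPM) than in CT baseline (28783), while Casq2 was higher (1274 against 924) and Trdn stayed between 303 and 339 CPM in all 4 libraries.

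Atp2a2 encodes the SERCA pump of heart muscle and lies on mm10 chromosome 5 from 122453513 to 122502225, on the minus strand. Its level was 28783 CPM at baseline and 14550 under TAC in CT, and 21077 and 13658 in cKO. Both TAC libraries lay below both baseline libraries. On the log2 scale the TAC library was 0.98 below the baseline library in CT (ratio 0.505, interval 0.499 to 0.512), which leaves it just short of a 2-fold difference. In cKO the log2 ratio was -0.63 (ratio 0.648, 0.637 to 0.659). Some Atp2a2 reads in the cKO libraries came out as parts of reads rather than whole ones (34458.5 reads at baseline and 25113.5 under TAC). How many reads were so split is not known, so those values are uncertain to an unknown degree. Exons of Gm43361 on the opposite strand also overlap those of Atp2a2.

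Pln encodes phospholamban, the small membrane protein that inhibits the pump. It lies on chromosome 10 from 53337667 to 53345987. Its level was 2916 CPM at baseline and 1718 under TAC in CT, and 3028 and 2343 in cKO, so it was lowest in CT TAC and close together in the baseline libraries. The log2 ratio of TAC to baseline was -0.76 in CT (ratio interval 0.566 to 0.613) and -0.37 in cKO (0.742 to 0.806). Exons of Cep85l on the opposite strand overlap those of Pln, and the sources used here do not say whether counting used strand. Cep85l had 14 to 44 reads per library against 3441 to 7867 for Pln.

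Ryr2, the calcium release channel, lies on chromosome 13 from 11553102 to 12106945. Its level was 2787 CPM at baseline and 1598 under TAC in CT, and 2453 and 1472 in cKO. Both TAC libraries were below both baseline libraries, by 0.80 log2 units in CT (ratio interval 0.550 to 0.598) and 0.74 in cKO (0.571 to 0.630). Jph2 encodes junctophilin 2, which ties the reticulum to the surface membrane so that release channels face the calcium channels that trigger them. It lies on chromosome 2 from 163336242 to 163397993. Its level was 320 CPM at baseline and 132 under TAC in CT, and 235 and 144 in cKO. The TAC libraries were again the low ones and lay close together. In CT the log2 ratio was -1.28 (ratio interval 0.357 to 0.473), and 4.37% of all genes had a lower ratio. In cKO it was -0.71 (0.521 to 0.717).

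Casq2, Trdn, Hrc and Srl encode proteins of the store itself. Casq2, cardiac calsequestrin, is the main calcium-binding protein of the lumen and lies on chromosome 3 from 102086415 to 102146514. Its level was 924 CPM at baseline and 1274 under TAC in CT, and 1148 and 1288 in cKO. CT baseline was the low library, and the other 3 lay closer together. The log2 ratio of TAC to baseline was 0.46 in CT (ratio interval 1.30 to 1.46) and 0.17 in cKO (1.06 to 1.19), the opposite direction to the pump, the channel and Jph2. Trdn encodes triadin, which anchors calsequestrin to the release channel, and lies on chromosome 10 from 33080554 to 33476709. It had 339, 328, 317 and 303 CPM in CT baseline, CT TAC, cKO baseline and cKO TAC. Its ratio intervals included 1 in the 4 pairs compared (TAC against baseline in each genotype, and cKO against CT in each surgical state), at 519 to 914 reads per library, so no difference was detectable at this depth in those pairs.

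Hrc encodes the histidine-rich calcium-binding protein, which binds both triadin and the pump, and lies on chromosome 7 from 45335290 to 45338974. Its level was 2388 CPM at baseline and 1474 under TAC in CT, and 1855 and 907 in cKO, where cKO TAC was the lowest of the 4. The log2 ratio of TAC to baseline was -0.70 in CT (ratio interval 0.591 to 0.645) and -1.03 in cKO (0.460 to 0.519). Srl encodes sarcalumenin, a luminal protein that stabilizes the pump, and lies on chromosome 16 from 4480216 to 4541816. It had 1227 CPM at baseline and 800 under TAC in CT, and 1032 and 682 in cKO. Its log2 ratios of -0.62 in CT (0.614 to 0.692) and -0.60 in cKO (0.614 to 0.711) had overlapping intervals.

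**Figure D2:**
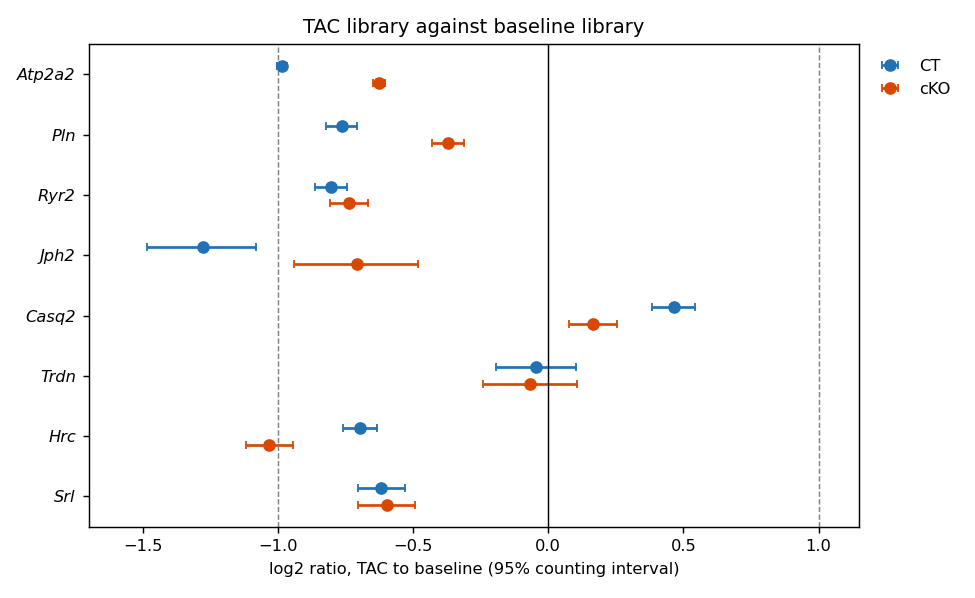
Log2 ratio of TAC to baseline (horizontal axis) for each gene in CT (blue) and cKO (orange), with 95% counting intervals; dashed lines mark 2-fold. The intervals of 6 genes lie left of 0 in both genotypes, those of Casq2 lie right of 0 in both, and those of Trdn include 0.

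At the threshold of a 2-fold difference with a counting interval that excluded 1, Jph2 was the only gene of the 8 called in CT, where 4.68% of all genes were called lower and 6.06% higher. Hrc was the only gene called in cKO, where 2.84% of all genes were called lower and 3.68% higher. At 1.5-fold, 6 of 8 were called lower in CT (9.82% of all genes) and 5 of 8 in cKO (6.59% of all genes). The genes lower by that measure in CT were Atp2a2, Pln, Ryr2, Hrc, Jph2 and Srl, and in cKO the same genes without Pln. None was called higher at either fold, where 1.5-fold gave 11.4% of all genes in CT and 7.45% in cKO. At any fold, 6 had a counting interval below 1 and 1, Casq2, had one above 1 in both genotypes. The shares of all genes below 1 were 15.3% in CT and 11% in cKO, and those above 1 were 16.4% and 11.1%. Whether an interval excludes 1 depends on reads, so these shares are not a like background. The 8 genes had 264 to 77652 reads per library, and the median gene 30 to 48. Of the 18 cardiomyocyte markers, 9 had an interval below 1 and 7 above 1 in both genotypes. The median log2 ratio of the 8 genes was -0.73 in CT and -0.61 in cKO, against 0.01 and -0.00 over all genes, and that of the 18 cardiomyocyte markers was -0.03 and -0.04. Taken relative to those markers, Hrc in cKO was at -0.99 and no gene was then called at 2-fold in cKO.

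A limma fit with a mean-variance trend over all 4 libraries compared the TAC with the baseline libraries, 2 on each side, with a term for genotype and Benjamini-Hochberg adjustment over all genes. It called Jph2, Hrc and Ryr2 lower under TAC and none of the 8 higher, where 0.524% of all genes were called lower and 1.3% higher. At an unadjusted p under 0.05, 6 of the 8 were lower and none higher (7.37% and 8.85% of all genes). Jph2 fell by 0.99 log2 units (SE 0.20, adjusted p = 0.034, lower in both genotypes). Hrc fell by 0.86 (SE 0.17, adjusted p = 0.0355) and Ryr2 by 0.77 (SE 0.17, adjusted p = 0.0477), both lower in both genotypes. The other genes did not pass. Their effects were -0.81 for Atp2a2 (SE 0.21, adjusted p = 0.0937), -0.61 for Srl (SE 0.16, adjusted p = 0.1), -0.57 for Pln (SE 0.18, adjusted p = 0.155), 0.31 for Casq2 (SE 0.17, adjusted p = 0.398) and -0.06 for Trdn (SE 0.17, adjusted p = 0.903). The fit leaves 1 residual degree of freedom, which is the difference of a gene's TAC ratio between the genotypes, as no group had a replicate. The p-values also lean on variance shared over all genes (10.1 prior degrees of freedom). All 3 calls were lost when 0.5 read or 5 CPM was added before the logarithm, without the variance trend, and without the genotype term, where the adjusted p of limma ranged from 0.0525 to 0.388. Ryr2 also missed the threshold under scaling to total reads (adjusted p = 0.0573) and relative to cardiomyocyte markers (adjusted p = 0.0566).

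The sequence before the start of each gene is shown for the 3 that fell in limma's fit and for Casq2, which had the opposite direction, so that their promoters can be read side by side. RefSeq promoters of GRCm38.p6 were matched for 5 of the 8 genes. Each window below holds the 250 bases before the RefSeq start, 5′ to 3′ on the strand of the gene. The windows are chr2:163397994-163398243 (minus strand) for Jph2, chr7:45335019-45335268 (plus) for Hrc, chr13:12106946-12107195 (minus) for Ryr2 and chr3:102086165-102086414 (plus) for Casq2. Capitals mark a match to one of 4 motifs, searched on both strands: the MEF2 motif and the CArG box of serum response factor, both of muscle genes, CATTCC, the core bound by TEAD factors, which are the partners of YAP in the Hippo pathway, and TATAAA.
Jph2: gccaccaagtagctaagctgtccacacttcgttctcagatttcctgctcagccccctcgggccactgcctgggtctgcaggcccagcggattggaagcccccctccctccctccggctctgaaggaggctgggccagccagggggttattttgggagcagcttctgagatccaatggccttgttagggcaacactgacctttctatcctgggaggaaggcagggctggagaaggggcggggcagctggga
Hrc: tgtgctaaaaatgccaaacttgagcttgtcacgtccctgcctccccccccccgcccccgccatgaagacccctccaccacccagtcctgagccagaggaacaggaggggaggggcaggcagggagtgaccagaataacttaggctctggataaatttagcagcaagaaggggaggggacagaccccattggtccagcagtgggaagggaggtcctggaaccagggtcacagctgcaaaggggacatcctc
Ryr2: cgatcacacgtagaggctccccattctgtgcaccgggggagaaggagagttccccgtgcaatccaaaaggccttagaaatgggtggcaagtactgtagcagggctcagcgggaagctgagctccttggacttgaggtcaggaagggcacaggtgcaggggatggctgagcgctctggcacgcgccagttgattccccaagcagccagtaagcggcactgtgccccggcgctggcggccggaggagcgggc
Casq2: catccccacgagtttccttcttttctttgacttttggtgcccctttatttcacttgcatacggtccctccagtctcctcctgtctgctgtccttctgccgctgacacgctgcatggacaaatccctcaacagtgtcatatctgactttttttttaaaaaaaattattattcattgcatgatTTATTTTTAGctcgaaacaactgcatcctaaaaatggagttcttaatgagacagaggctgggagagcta
Of these windows the Casq2 one held a match, to the MEF2 motif, from 69 to 60 bases before the start. Windows of the same kind held the MEF2 motif in 2.92% of 32851 promoters, the CArG box in 1.47%, CATTCC in 12.6% and TATAAA in 12.4%. The letters of the 4 motifs were not in the windows of Jph2, Hrc and Ryr2. The Pln window, not shown, held TATAAA 219 bases before the start.

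Atp2a2, Jph2, Hrc, Srl and Ryr2 were lower and Casq2 higher in cKO than in CT at baseline, all by less than 1.5-fold. In the cKO baseline library against CT baseline, none of the 8 genes was called at 2-fold or at 1.5-fold, where 1.79% and 4.95% of all genes were called lower and 3.26% and 5.82% higher. At any fold, 5 had a counting interval below 1 (10.3% of all genes) and 2 had one above 1 (9.22%). Such counts depend on reads, and of the 18 cardiomyocyte markers 7 had an interval below 1 and 7 above it. Among the 8 genes, Atp2a2 and Jph2 had the lowest log2 ratios, both -0.45 (ratio intervals 0.723 to 0.742 and 0.649 to 0.828). Hrc followed at -0.36, Srl at -0.25 and Ryr2 at -0.18, while Casq2 was at 0.31 (1.17 to 1.32) and Pln at 0.05 (1.00 to 1.08). Under scaling to total reads several of these ratios moved beyond their counting intervals. Atp2a2 was then at -0.36, Hrc at -0.27, Srl at -0.16, Ryr2 at -0.09, Casq2 at 0.41 and Pln at 0.15, each in the same direction as before. Macrophage markers, summed, were 1037 CPM in cKO baseline and 453 in CT baseline, with all 12 measured and 8 called higher at 2-fold. Of the 12 fibroblast markers 11 were above 0 in the same pair and 6 were called higher (median log2 ratio 0.94). The part of both lists in the result was not tested.

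Under TAC, none of the 8 was called at 2-fold between cKO and CT (2.1% of all genes lower, 2.93% higher). At 1.5-fold Hrc alone was called lower, at -0.70 (ratio interval 0.579 to 0.654), where 6.04% of all genes were called lower. Pln was at 0.45 (1.30 to 1.43), higher in cKO TAC. Atp2a2 (-0.09), Ryr2 (-0.12) and Srl (-0.23) lay nearer to equal, and the intervals of Casq2 (0.02), Jph2 (0.12) and Trdn (-0.12) included 1. At any fold, 4 had an interval below 1 and 1 above it (11.2% and 9.48% of all genes). Of the 18 cardiomyocyte markers, 8 had an interval below 1 and 9 above it. Under scaling to total reads the Atp2a2 ratio turned to 0.01, and relative to cardiomyocyte markers that of Casq2 turned to -0.05. In limma's fit with a term for surgery, 2 cKO against 2 CT libraries, none of the 8 genes was called for genotype, where 0.0242% of all genes were called higher and 0% lower. At an unadjusted p under 0.05 there was 1 lower, Hrc, and none higher (3.63% and 4.13% of all genes), with an effect of -0.53 (SE 0.17, adjusted p = 0.531 in limma).

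**Figure D3:**
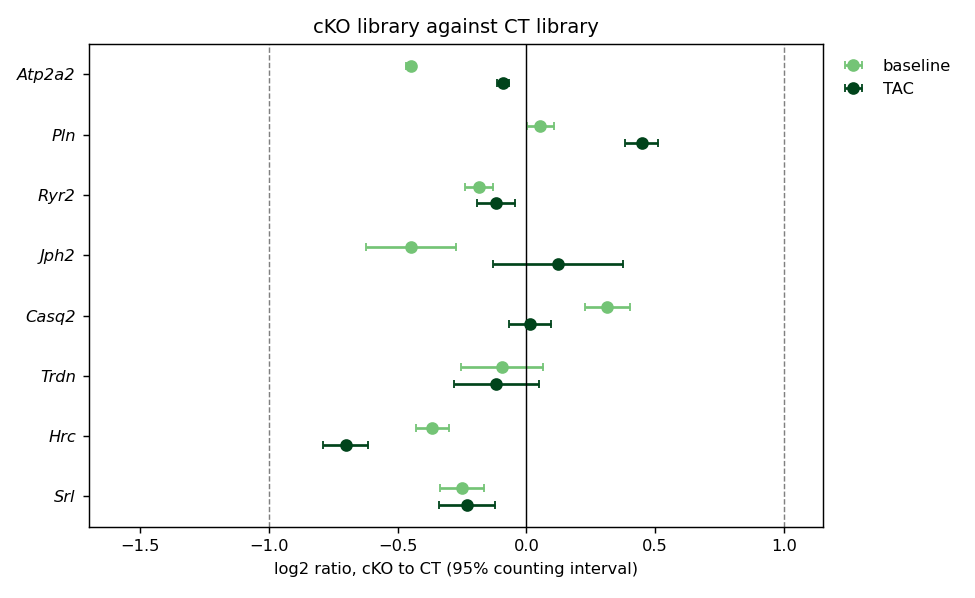
Log2 ratio of the cKO library to the CT library (horizontal axis) for each gene at baseline (light green) and under TAC (dark green), with 95% counting intervals; dashed lines mark 2-fold. No point reaches 2-fold, Hrc under TAC lies farthest left (-0.70) and Pln under TAC farthest right (0.45).

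The balance of genes whose products work together was read within each library as reads of one per 100 reads of the other, which no scaling of libraries can change. These pairs were chosen after the values were seen. Pln per 100 reads of Atp2a2 was 10.1 at baseline and 11.8 under TAC in CT, and 14.4 and 17.2 in cKO. The ratio of inhibitor to pump transcripts thus was higher in both cKO libraries than in both CT libraries, and higher under TAC within each genotype. The cKO value was 1.42 times the CT value at baseline (counting interval 1.37 to 1.47) and 1.45 times under TAC (1.39 to 1.52), and the TAC value was 1.17 times the baseline value in CT (1.12 to 1.22) and 1.19 times in cKO (1.14 to 1.25). The part reads of Atp2a2 and the overlap of Pln with Cep85l apply to this ratio as well.

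Casq2 per 100 reads of Ryr2 was 33.1 at baseline and 79.7 under TAC in CT, and 46.8 and 87.5 in cKO. The TAC value was 2.41 times the baseline value in CT (2.24 to 2.58) and 1.87 times in cKO (1.73 to 2.02), so the calsequestrin transcript was higher relative to that of the release channel in both TAC libraries. Trdn per 100 reads of Casq2 was highest in CT baseline (36.7) and between 23.5 and 27.7 in the other libraries. Jph2 per 100 reads of Ryr2 was 11.5 in CT baseline and 8.25 in CT TAC, while the values in cKO (9.58 at baseline and 9.75 under TAC) did not differ beyond counting error (ratio 0.864 to 1.20).

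Transport across the surface membrane was set against that of the reticulum in the same way. Slc8a1, the sodium-calcium exchanger that carries calcium out of the cell, had 1.62 reads per 100 of Atp2a2 in CT baseline and 1.97 to 2.12 in the other libraries. Its TAC value was 1.30 times the baseline value in CT (1.18 to 1.44) and 1.08 times in cKO (0.962 to 1.21), the latter within counting error. The level of Slc8a1 itself was lower under TAC, at 467 CPM at baseline and 307 under TAC in CT, and 415 and 290 in cKO. Cacna1c, the pore subunit of the L-type calcium channel that triggers release, had 11.7 reads per 100 of Ryr2 at baseline and 13.0 under TAC in CT, and 8.88 and 14.3 in cKO. In cKO its TAC value was 1.61 times the baseline value (1.38 to 1.88), and in CT 1.11 times (0.983 to 1.26). The level of Cacna1c itself was 325 CPM at baseline and 207 under TAC in CT, and 218 and 211 in cKO, so it was not higher under TAC. Slc8a1 and Cacna1c had part reads in all 4 libraries, so the limit given for Atp2a2 applies to these ratios and levels as well.

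**Figure D4:**
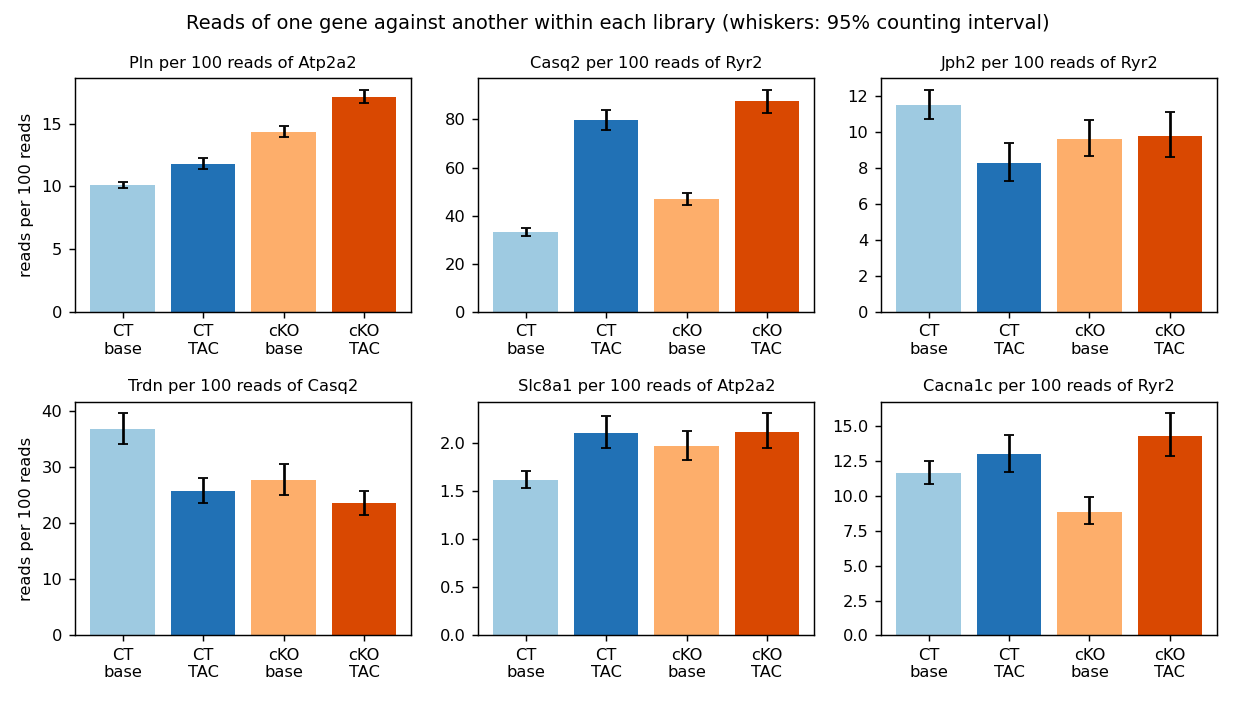
Reads of one gene per 100 reads of another (vertical axes from 0) in each of the 4 libraries, with 95% counting intervals. Pln per 100 reads of Atp2a2 goes from 10.1 in CT baseline to 17.2 in cKO TAC, and Casq2 per 100 reads of Ryr2 is 79.7 and 87.5 in the TAC libraries against 33.1 and 46.8 at baseline.

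Other genes of calcium handling were taken from 4 lists, described by the same thresholds. Of 23 measured genes around the release channel, 3 were called higher and 0 lower at 2-fold in CT under TAC (median log2 ratio 0.29), where 6.06% and 4.68% of all genes were. They were Fkbp1a, a binding protein of the ryanodine receptor (1.00), S100a1, a calcium sensor that acts on the receptor and the pump (1.00), and Bin1, which shapes T-tubules (1.04, at 28.5 against 18 reads). Fkbp1a and S100a1 stood only just above the 2-fold line, and their calls under the other settings are not reported here. In cKO, 1 of the 23 was called higher, the inositol trisphosphate receptor gene Itpr3 (1.37), and 0 lower (median 0.13), against 3.68% and 2.84% of all genes. In limma's fit over both genotypes, 1 of the 23 fell and none rose (0.524% and 1.3% of all genes): Ppp1r3a, a subunit that brings protein phosphatase 1 to glycogen and the reticulum in muscle (-0.84, SE 0.19, adjusted p = 0.0482).

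Of 10 measured regulators of uptake, 2 were called lower and 0 higher in CT under TAC (median -0.36), against 4.68% and 6.06% of all genes. These were the phosphatase inhibitor gene Ppp1r2 (-2.14, 23 against 141 reads) and the cyclic AMP phosphodiesterase gene Pde4d (-1.06). In cKO, Pde4d (-1.08) and the calcium-binding chaperone gene Calr (-1.20) were lower and the pump gene Atp2a3 was higher (1.45, at 53.7 against 17 reads), where 2.84% of all genes were called lower and 3.68% higher. Calr had 494 CPM at baseline and 762 under TAC in CT, and 872 and 380 in cKO. It was thus higher under TAC in CT (0.63) and lower in cKO, whose baseline library was the highest of the 4 (0.82 above CT baseline on the log2 scale). Limma called none of these 10 for TAC at adjusted p under 0.05, and 1 higher and 3 lower at an unadjusted p under 0.05 (8.85% and 7.37% of all genes). Between the genotypes, Ppp1r2 was higher in cKO TAC than in CT TAC (1.91) and Calr was lower (ratio interval 0.456 to 0.546). In that pair 2.93% of all genes were called higher and 2.1% lower. At baseline none of the 10 was called, where 3.26% of all genes were called higher and 1.79% lower. Casq1, the skeletal muscle calsequestrin and one of the release list, was higher in cKO baseline (2.10), with 26 reads against 9. It was the only one of the 23 genes of that list called in the baseline pair. Skeletal muscle markers, with 8 of 14 measured, summed to 87.5 CPM in cKO baseline and 33.2 in CT baseline, and 2 of them, Myh1 and Mylpf, were at 0 reads in a library. Most of that difference was Mybpc2, at 63.6 against 17.4 CPM, the only one of the 8 called higher at 2-fold. Their part in the Casq1 value was not tested.

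None of the 17 measured genes of sarcolemmal calcium and sodium transport was called at 2-fold in any of the 4 pairs, with list medians from -0.14 to 0.02. Of all genes, 4.68% were called lower and 6.06% higher in CT under TAC, and 2.84% and 3.68% in cKO. Between the genotypes these shares were 1.79% and 3.26% at baseline, and 2.1% and 2.93% under TAC. Limma called none of the 17 for TAC at adjusted p under 0.05 and 4 lower at an unadjusted p under 0.05 (7.37% of all genes), Slc8a1 among them (-0.56, SE 0.17, adjusted p = 0.136). Of 9 mitochondrial calcium genes, Micu2, a gatekeeper of the mitochondrial calcium uniporter, was called higher in CT under TAC (1.02). None of the others was called in that pair, where 6.06% of all genes were called higher and 4.68% lower. In the other pairs none of the 9 was called. Micu2 also rose in limma's fit by 0.90 (SE 0.19, adjusted p = 0.0471), the only one of the 9 called there (1.3% of all genes higher, 0.524% lower). Both this call and that of Ppp1r3a lie close to the threshold, and their values under the other settings are not reported here.

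**Figure D5:**
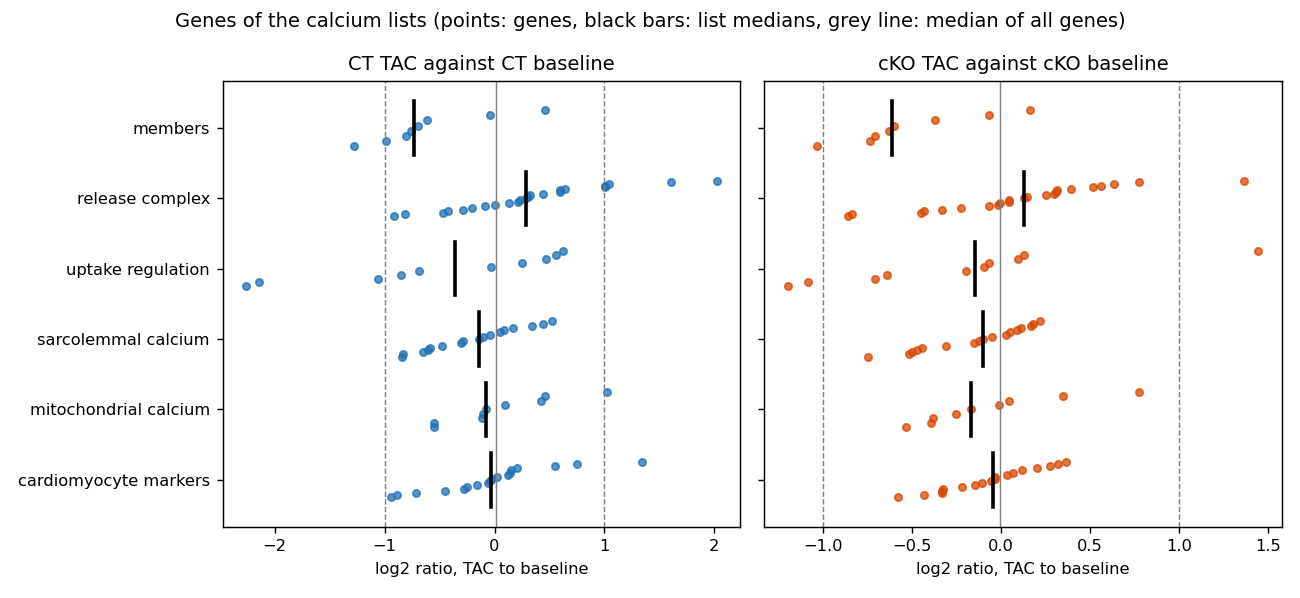
Log2 ratio of the TAC to the baseline library (horizontal axis) for each gene of the set, the 4 other calcium lists and the cardiomyocyte markers, in CT (left) and cKO (right); black bars are list medians, the grey line is the median of all genes and dashed lines mark 2-fold. The set's median of -0.73 in CT and -0.61 in cKO lies to the left of the medians of the other lists drawn.

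As a description over only 4 libraries, the genes closest to the median pattern of the 8 were Polg, Cyfip2, Mypn, Creg1 and Pygm. They were taken from 2230 genes with at least 100 reads in every library, by Euclidean distance between log2 CPM values centred on their mean, and the distances were 0.03 to 0.11. The median pattern stood at 0.45 at baseline and -0.26 under TAC in CT, and 0.21 and -0.43 in cKO. Of the 8 genes themselves Srl (0.08) and Ryr2 (0.11) were nearest to it, and Casq2 (1.07) was the farthest.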

How the data were processed

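Heart RNA was sequenced in 4 libraries, 1 per group, with groups taken from the genotype and surgery in the labels. The authors deposited log2 CPM values for 12408 genes per library; the unit was read from the values. CASAVA, HISAT2, edgeR and the build mm10 appear in the submitters' processing notes with neither version nor role. Which counter and annotation made the values is not given in the sources used here. All libraries share one lowest value, which corresponds to 1 scaled read added before the logarithm. That value was subtracted and the rest divided by the step of the low values, 0.371 to 0.612 CPM per read, which gave whole reads (within 0.01) for 88.6% to 89.0% of genes.

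Log2 ratios are differences of deposited values. Ratio intervals are 95% Clopper-Pearson intervals from rounded reads, and CPM intervals are Poisson. Intervals of within-library ratios use a normal approximation on the log scale. All cover counting error only, and PCR copies are not independent molecules. A call needed at least 2-fold and an interval excluding 1. All genes were fitted in limma 3.58.1 under R 4.3.3, using additive genotype and surgery terms, a mean-variance trend and Benjamini-Hochberg adjustment at 0.05. The fit was first run on simulated reads that held no genotype effect. The outcome of that run is not reported here, and no result above rests on it.

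The members, lists and partners were chosen with earlier results of these data known. All members are named, as are list genes called in a pair of libraries or by limma, and the 5 genes nearest in pattern. Slc8a1 and Cacna1c were named for the partner ratios. The p-values of limma rest on 1 residual degree of freedom per gene and on variance shared over all genes, not on replicates. Alternatives changed scaling, pseudocount, low-value filter, fold, threshold and variance model.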

Additional observations from a re-analysis of the deposited data

Results flagged for a closer look

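The log2 ratio of Jph2 in cKO to that in CT had opposite signs in the surgical states, -0.45 at baseline and 0.12 under TAC. The difference between these ratios was not tested, each rests on 1 library per group, and the counting interval of the ratio under TAC included 1.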

How the results depend on the processing

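No paired analysis was possible because the labels number no replicates and each group held 1 library. Leaving out any library leaves the limma fit no residual degrees of freedom, so no count of calls exists without it. The effects of single genes were then those of one pair of libraries, from -1.28 to -0.71 for Jph2 and from -0.76 to -0.37 for Pln under TAC.

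With a 1.5-fold threshold, the genes called went from 1 to 6 in CT under TAC, from 1 to 5 in cKO under TAC and from 0 to 1 between the genotypes under TAC. Relative to cardiomyocyte markers, 0 were called in cKO under TAC. Limma's 3 TAC calls became 0 with 0.5 read added, 0 with 5 CPM added, 0 without the variance trend and 0 without the genotype term, and 5 at an adjusted p under 0.1; the cause was not tested. The other settings gave 2 to 4 TAC calls, and no setting gave a genotype call. Filtering to a mean CPM of at least 5, or the robust trend, added Atp2a2. Total-read scaling, or subtracting cardiomyocyte markers, left Hrc and Jph2.

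Of the ratios of single genes recomputed under other scalings and pseudocounts, 145 stayed within their counting interval and 15 moved beyond it. Those that moved were mostly cKO to CT ratios. Direction turned for Trdn at baseline and for Atp2a2 and Casq2 between the TAC libraries, none of them called. Scaling to total reads moved the median of all genes in the cKO to CT ratios to 0.10 at baseline and under TAC. Jph2 had the fewest reads of the 8 genes, 264 in each TAC library, and its intervals cover counting error only.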
